A study of Mus musculus with 9 samples.

Results

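The liver X receptors and 6 genes of sterol efflux and lipid handling that they are known to control were followed in mouse epidermal keratinocytes over the first 2 weeks after birth. The 8 genes were taken by symbol from a table of 24532 genes, and all 8 were present and passed the filter on low counts. They are the receptors Nr1h2 and Nr1h3, the transporters Abca1 and Abcg1, the apolipoprotein Apoe, the ubiquitin ligase Mylip, the transcription factor Srebf1 and the acyltransferase Lpcat3. The genes were chosen by name with their read counts at all 3 days in view, so their own differences between days are given as a description, with no p-value. edgeR's calls for them are only counted, beside the share of all genes called, and support nothing.

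Keratinocytes came from C57BL/6 skin at postnatal day 1, day 7 and day 14, with 3 libraries each, and no genotype or treatment differed between the days. Cells negative for the leukocyte surface marker CD45.2 and for the dead-cell dye PI were sorted from fresh tissue, a gate that takes no keratinocyte marker and so admits other cells of skin. Whether a library is 1 animal or a pool, and its sex, are not stated. P-values here rest on 1 estimate per gene of the scatter between same-day libraries, shared by the 3 days and moderated across genes. That scatter may be technical. Library numbers are those of the headers, which run 1 to 3 for day 7 and 4 to 6 for the other days.

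Liver X receptors are nuclear receptors that sense oxysterols and related sterols. Each binds DNA as a partner of a retinoid X receptor, at a pair of short repeats spaced by 4 bases, the DR4 element. When sterol accumulates they switch on genes that export cholesterol, that limit its uptake and that make and remodel fatty acids. In rodent epidermis their activators are known to speed keratinocyte differentiation and the forming of the water barrier. Nr1h2 is the form found in most tissues, and Nr1h3 is best known from liver, macrophages, intestine and fat.

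Promoter windows, taken from RefSeq on GRCm38.p6, the assembly also called mm10, were held for 7 of the 8 genes in 12 windows of 300 bases, 250 before and 50 after a transcript start. No window was held for Abcg1. The DR4 element was searched as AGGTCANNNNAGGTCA on both strands. With up to 2 mismatches in its fixed bases it was in none of the 12 windows and in 3.02% of all 32851. With up to 3 it was in 2 of the 12, those of Abca1 and of the most downstream start of Srebf1, and in 21.9% of all. The 250 bases before those starts are shown because both hold the element, in capitals, on the strand opposite to the gene. Both genes lie on the minus strand, and each run reads 5′ to 3′ along the gene at chr4:53159896-53160145 and chr11:60210472-60210721.
Abca1: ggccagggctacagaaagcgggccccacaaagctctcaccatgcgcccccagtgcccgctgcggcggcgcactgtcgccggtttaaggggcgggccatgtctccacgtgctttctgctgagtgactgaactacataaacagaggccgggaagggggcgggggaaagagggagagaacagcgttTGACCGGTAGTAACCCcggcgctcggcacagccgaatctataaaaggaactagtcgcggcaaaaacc
Srebf1: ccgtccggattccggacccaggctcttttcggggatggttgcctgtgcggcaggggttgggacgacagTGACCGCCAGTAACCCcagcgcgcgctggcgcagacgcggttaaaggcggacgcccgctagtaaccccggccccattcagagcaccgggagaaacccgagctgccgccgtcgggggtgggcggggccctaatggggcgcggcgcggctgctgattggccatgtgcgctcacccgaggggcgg

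Read in the direction of the DR4 element, the match before Abca1 lay 52 to 67 bases upstream of its window's transcript start. That before Srebf1 lay 167 to 182 bases upstream of its own. The gene span given below for Abca1 ends at 53159988 and so takes in the Abca1 match, at chr4:53159947-53159962. Both matches departed from the searched letters at the same places, A1G, C5T and A11C, counted from 1 at the 5′ end of the element. The letters GGGTTANNNNCGGTCA, read from these matches after they were seen, were in 3 of the 32851 windows. The third belonged to Fasn, the fatty acid synthase gene, at chr11:120824757-120824772 and 210 to 225 bases before its start. The matches are shown in the direction of the element, with the repeats and the 4 bases between them all in capitals.
Abca1: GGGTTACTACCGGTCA
Srebf1: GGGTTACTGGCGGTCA
Fasn: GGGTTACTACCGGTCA

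The elements of Abca1 and Fasn had the same 16 letters. A match describes letters in a window and is not a measured binding site. Of the other motifs searched on both strands, the sterol element TCACNCCAC was in none of the 12 windows and in 1.24% of all, the E-box CACGTG was in 1 of 12, that of Abca1, and in 7.15% of all, and the Sp1 box GGGCGG was in 5 of 12 and in 35.7% of all.

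The table held between 50670191 and 62970768 counts per library, and libraries of the same day correlated with r from 0.986 to 0.991 on log CPM across genes. Of 14507 genes tested with edgeR, 49.4% changed at day 7 versus day 1, 67.6% at day 14 versus day 7 and 73.9% at day 14 versus day 1, at an adjusted p under 0.05. The 8 keratinocyte markers summed to between 44443 and 59893 CPM (counts in each megaread of the scaled library) in every library. The RNA of the inactive X chromosome, Xist, had mean levels of 1352, 0 and 2534 CPM in the order of the days. The Y-linked Ddx3y had 41.8, 105 and 0 CPM. Every day 1 library had at least 53509 Xist and 1781 Ddx3y counts, so each held RNA of both sexes. Xist had 0 counts in every day 7 library, and Ddx3y had 0 in every day 14 library. The sex of the cells, and at day 7 another style of library header, therefore cannot be told apart from age in these comparisons. In bulk samples, fewer cells of a type and less RNA per cell cannot be told apart either.

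Of the 8 genes, 6 were called higher and 0 lower at day 7 versus day 1, where 25.5% of all genes tested were called higher. At day 14 versus day 7, 6 were called higher, against 32.5% of all genes, and 1 lower, against 35.1%. At day 14 versus day 1, 7 were called higher, against 35.5% of all genes, and 0 lower. The libraries of the 2 days did not overlap for 6, 7 and 7 of the 8 genes in these comparisons, and for 60.3%, 72.7% and 77.3% of all genes tested. Of these, 6, 6 and 7 of the 8 genes were higher on the later day, as were 30.4%, 35.3% and 36.9% of all genes tested. The median log2 fold change over the 8 genes was 0.705, 0.549 and 1.047 in the same order, and over all genes tested it was -0.001, -0.035 and -0.046. Because the genes were chosen with these values in view, nothing is read from these counts. For 5 of the 8, Abca1, Abcg1, Apoe, Mylip and Srebf1, the level was called higher in both steps, as for 12.3% of all genes tested. A difference somewhere over the 3 days was called for 7 of the 8, and for 82.1% of all genes tested.

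**Figure D1:**
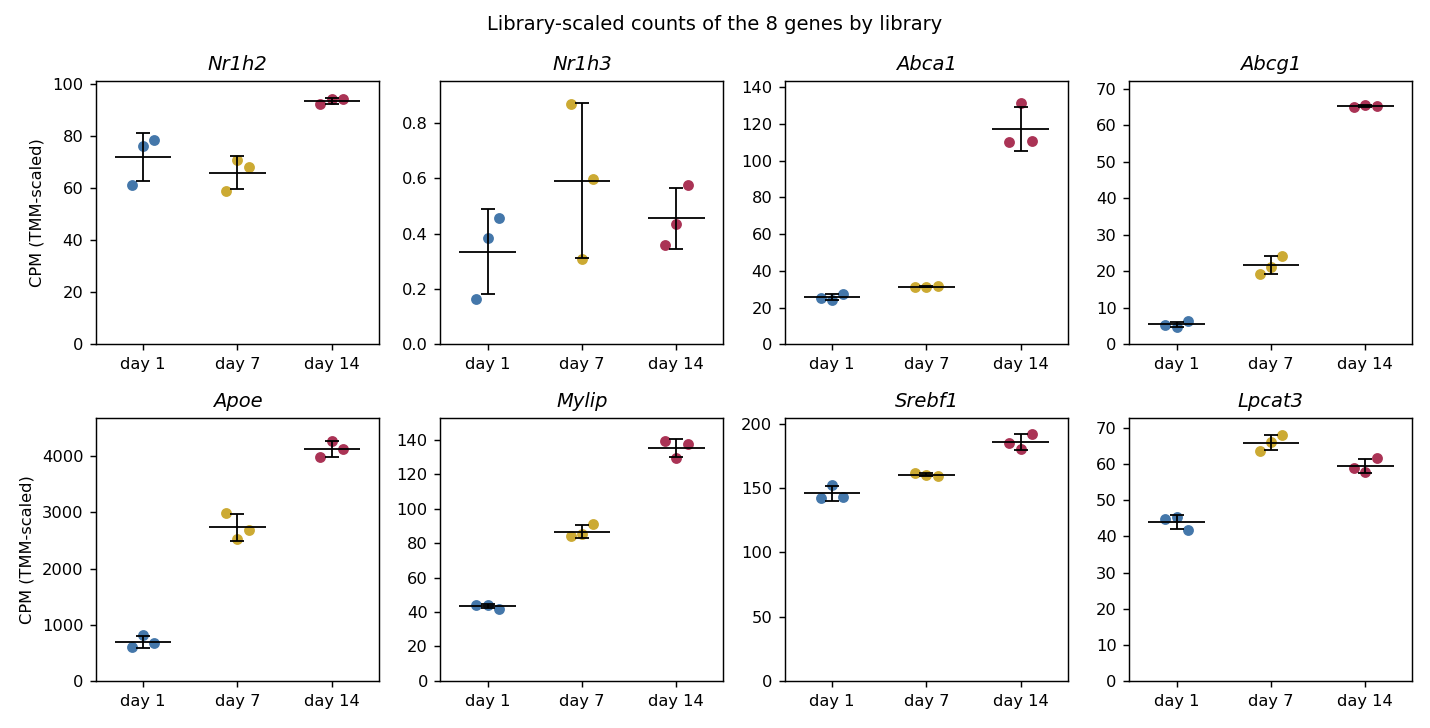
Library-scaled counts (CPM, linear axes from 0) of the 8 genes at days 1, 7 and 14. Points are libraries, lines the means and bars the SD (n = 3). Abcg1, Apoe and Mylip stand higher at each later day, Abca1 stands apart mainly at day 14, Lpcat3 is highest at day 7, and Nr1h3 stays at or under 0.868 CPM with overlapping days.

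Among the receptors, Nr1h2 (gene 22260, chromosome 7, 44549616 to 44553968) was the abundant form at each age. It had 61.3, 76.3 and 78.3 CPM in the day 1 libraries, 58.9, 70.8 and 68.0 CPM at day 7, and 92.3, 94.1 and 94.0 CPM at day 14. Every day 14 library was above every earlier one, while those of days 1 and 7 overlapped. The log2 fold change was -0.13 ± 0.09 (SE) at day 7 versus day 1, 0.50 ± 0.09 at day 14 versus day 7 and 0.38 ± 0.09 at day 14 versus day 1. With library totals alone as scaling, these were -0.22, 0.33 and 0.10, and the last no longer counted as called. Without day 1 library 4, the lowest of its day, the log2 fold change at day 7 versus day 1 was -0.23, which would count as called lower.

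Nr1h3 (gene 22259, chromosome 2, 91184061 to 91202829), the other receptor, had 11, 24 and 28 counts at day 1, 55, 19 and 31 counts at day 7, and 18, 23 and 29 counts at day 14. The days overlapped throughout. The span of Nr1h3 shares 6873 bases with Gm13783 on the same strand, a gene that the table does not hold. Whether reads of Gm13783 were counted in Nr1h3 was not tested. Mean levels for days 1, 7 and 14 were 0.335 ± 0.153, 0.593 ± 0.279 and 0.457 ± 0.111 CPM (SD, n = 3). The log2 fold changes had errors as wide as 0.83 ± 0.50 at day 7 versus day 1, and at this depth no difference between days was detectable. Per kilobase of exon, Nr1h2 made up from 99.5% to 99.8% of the summed level of both receptors in the day 1 libraries, from 98.6% to 99.6% at day 7 and from 99.4% to 99.6% at day 14.

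The efflux transporters differed in when they became more abundant. Abca1 (gene 11303, chromosome 4, 53030789 to 53159988) moves cholesterol and phospholipid across the plasma membrane to lipid-poor apolipoproteins. It had 25.3, 24.2 and 27.2 CPM at day 1, 31.0, 31.3 and 31.9 CPM at day 7, and 110.1, 131 and 110.6 CPM at day 14. No libraries of different days overlapped, and the larger gap lay between days 7 and 14. The log2 fold change was 0.30 ± 0.07 at day 7 versus day 1 and 1.90 ± 0.07 at day 14 versus day 7, and at day 14 versus day 1 it was 2.197 ± 0.07, or 4.59-fold. Under library totals alone the first of these was 0.20.

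Abcg1 (gene 11307, chromosome 17, 31057694 to 31117984), known to pass sterol to mature lipoprotein particles, had the largest fold of the 8 genes at day 14 versus day 1. Its values were 5.22, 4.83 and 6.23 CPM at day 1, 19.3, 21.3 and 24.2 CPM at day 7, and 64.8, 65.6 and 65.3 CPM at day 14. The days were again fully apart, with gaps of like size on the log2 scale. Log2 fold changes were 1.99 ± 0.10 at day 7 versus day 1, 1.60 ± 0.09 at day 14 versus day 7 and 3.59 ± 0.10 at day 14 versus day 1, or 12.02-fold. Of all genes tested, 1.93% had a higher log2 fold change at day 14 versus day 1.

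Set side by side per kilobase of exon, Abcg1 was farthest below Abca1 at day 1. By the exon lengths used here, it was closest to Abca1 at day 7. The ratio of Abcg1 to Abca1 was between 0.2997 and 0.344 in the day 1 libraries, between 0.936 and 1.14 at day 7 and between 0.750 and 0.887 at day 14. The days did not overlap.

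Apoe (gene 11816, chromosome 7, 19696244 to 19701310) encodes a secreted apolipoprotein that accepts effluxed sterol and carries lipid between cells. It had 606, 813 and 673 CPM at day 1, 2995, 2522 and 2690.2 CPM at day 7, and 3982, 4276 and 4130.4 CPM at day 14. The days did not overlap, and the step to day 7 was the larger. The log2 fold change was 1.97 ± 0.11 at day 7 versus day 1 and 0.59 ± 0.10 at day 14 versus day 7, and at day 14 versus day 1 it was 2.57 ± 0.11, or 5.92-fold. Per kilobase of exon, among 23688 genes with a length, Apoe ranked between 100 and 132 from the top at day 1, between 15 and 24 at day 7 and between 8 and 9 at day 14. It took a mean of 0.0760% of all counts at day 1, 0.278% at day 7 and 0.372% at day 14.

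Apoe and both transporters are also expressed by macrophages, and Apoe by melanocytes, so the markers of these cells were read beside them. The 10 macrophage and leukocyte markers summed to between 4.32 and 5.45 CPM at day 1, between 3.13 and 3.51 at day 7 and between 10.96 and 12.5 at day 14, with Cd163 at 0 in all libraries and C1qa at 0 at day 7. Most of this was Cd68, a lysosomal protein found beyond macrophages, and the other 9 markers together had 41 to 60, 14 to 54 and 133 to 162 counts per library. The 4 of these 10 markers that could be tested, Cd68, Tyrobp, Fcer1g and Csf1r, were all called higher at day 14 versus day 7, with log2 fold changes of 1.68, 2.82, 2.53 and 2.09 (edgeR adjusted p at most 0.0105), and the last 3 of them reached 81, 44 and 33 counts. Ptprc, the gene of CD45, reached no more than 9 counts, and Lyz2 and Mrc1 had at most 4 each at day 14. Adgre1, also too low to test, had 0 to 4 counts at days 1 and 7 and 2 to 19 at day 14. The 5 Langerhans cell markers summed to between 16.5 and 18.5, between 7.60 and 9.03 and between 32.7 and 34.9 CPM at days 1, 7 and 14. Most of the day 1 sum was Cd1d1, which fell with age and was set aside only after the values were seen. Without it the other 4 markers summed to between 2.23 and 3.78, between 5.09 and 5.83 and between 31.3 and 34.2 CPM. That sum, like Abcg1, was higher on each later day, but H2-Ab1 was not called at day 7 versus day 1 (edgeR adjusted p = 0.209). All 4 were called higher at day 14 versus day 1, and Cd207 had 0 counts at day 1 and 34 to 64 at day 14. The part of leukocytes and Langerhans cells in the values of Apoe, Abca1 and Abcg1 was not tested.

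Markers of other skin cells had courses of their own. The 9 melanocyte markers summed to between 448 and 470.1 CPM at day 1, between 122 and 145 at day 7 and between 20.4 and 22.6 at day 14. At day 14 versus day 7, 8 of them were called lower, and Mitf was called higher (log2 fold change 0.77, edgeR adjusted p = 0.000663). The 8 fibroblast markers summed to between 122 and 226, between 17.3 and 61.9 and between 17.0 and 37.5 CPM at the same days. The 10 sebocyte markers summed to between 40.3 and 44.4, between 56.5 and 68.8 and between 33.5 and 42.3 CPM, with Awat1 at 0 at day 14. Most of this was Plin2 (means 24.5, 29.7 and 25.4 CPM) and Mgst1 (10.9, 23.8 and 9.54 CPM). Of the 8 sebocyte markers tested, 6 were called lower and 0 higher at day 14 versus day 7 (median log2 fold change -1.281). Of all genes tested, 35.1% were called lower there. The 5 Schwann cell markers were between 44.7 and 47.4, between 62.7 and 68.4 and between 114 and 128 CPM, but without Mbp the other 4 were between 18.3 and 20.9, between 6.00 and 7.37 and between 1.79 and 2.30. The 5 endothelial and 5 adipocyte markers each summed to at most 1.73 CPM. The part of these cells in the results was not tested.

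Mylip (gene 218203, chromosome 13, 45389742 to 45411940), also called Idol, marks lipoprotein receptors for breakdown. It had 44.1, 44.1 and 41.9 CPM at day 1, 84.1, 85.2 and 91.2 CPM at day 7, and 139, 129 and 137 CPM at day 14. All libraries of a later day were above all of an earlier one. The log2 fold change was 1.00 ± 0.05 at day 7 versus day 1, 0.64 ± 0.05 at day 14 versus day 7 and 1.64 ± 0.05 at day 14 versus day 1.

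Srebf1 (gene 20787, chromosome 11, 60199084 to 60224186) encodes a transcription factor that drives fatty acid synthesis, in a long and a short first-exon form that a count per gene cannot separate. It had 142, 153 and 143 CPM at day 1, 162, 160.2 and 159 CPM at day 7, and 185, 180.1 and 192 CPM at day 14. The days did not overlap, but they stood close together. Log2 fold changes were 0.13 ± 0.05 at day 7 versus day 1, 0.21 ± 0.05 at day 14 versus day 7 and 0.35 ± 0.05 at day 14 versus day 1. Scaled by library totals alone these were 0.04, 0.04 and 0.07, none counted as called, and the first was also not counted without any single day 7 library or without day 1 library 4 or 6 (log2 fold change 0.12 to 0.14). Reads from the 109 bases that Srebf1 shares with Rai1 on the other strand may be counted in either gene.

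Lpcat3 (gene 14792, chromosome 6, 124663094 to 124704716), which inserts polyunsaturated fatty acids into phospholipids, was highest at day 7. It had 44.7, 45.5 and 41.9 CPM at day 1, 63.7, 66.2 and 67.9 CPM at day 7, and 59.1, 57.8 and 61.7 CPM at day 14. The days did not overlap, and those of days 7 and 14 were close. The log2 fold change was 0.58 ± 0.05 at day 7 versus day 1, -0.15 ± 0.05 at day 14 versus day 7 and 0.43 ± 0.05 at day 14 versus day 1. The difference at day 14 versus day 7 was not counted as called with DESeq2 or without day 7 library 3 or day 14 library 5 (log2 fold change -0.12, -0.14 and -0.14). Scaled by library totals alone this difference was -0.32 on the log2 scale, and that at day 14 versus day 1 was 0.16. Lpcat3 shares 334 bases with Emg1 on the other strand.

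**Figure D2:**
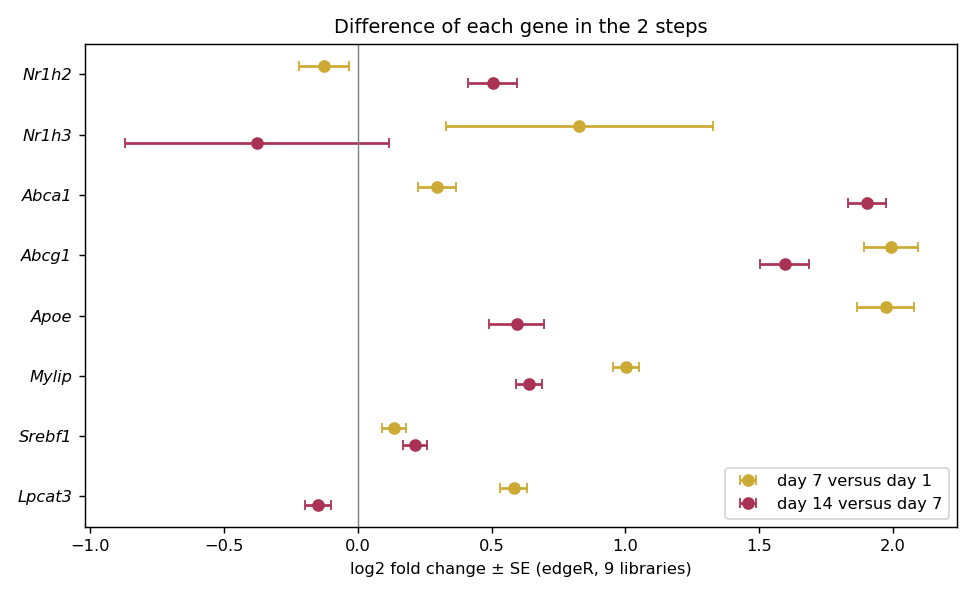
Log2 fold change (horizontal axis, ± SE, edgeR over 9 libraries) of each of the 8 genes at day 7 versus day 1 and at day 14 versus day 7. Abca1 lies far to the right in the second step only (1.90 against 0.30 in the first), Apoe mainly in the first (1.97 against 0.59), and Abcg1 in both.

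Per kilobase of exon, Apoe stood far above the others, at 379 ± 57.4, 1488 ± 131 and 2247 ± 79.9 CPM per kilobase at days 1, 7 and 14. At day 1 the next were Nr1h2 and Srebf1, which overlapped between libraries at means of 35.9 and 34.0 CPM per kilobase, and then Lpcat3 (19.3), Mylip (13.4), Abca1 (2.49), Abcg1 (0.795) and Nr1h3 (0.156), each without overlap with its neighbour. At day 7 the order after Apoe was Srebf1 (37.3), Nr1h2 (32.9), Lpcat3 (28.9), Mylip (26.9), Abcg1 (3.16), Abca1 (3.06) and Nr1h3 (0.276). Of these neighbours Nr1h2 and Lpcat3 overlapped, as did Lpcat3 and Mylip, and Abcg1 and Abca1. At day 14 the order was Nr1h2 (46.6), Srebf1 (43.2), Mylip (41.9), Lpcat3 (26.1), Abca1 (11.4), Abcg1 (9.55) and Nr1h3 (0.213), and only Srebf1 and Mylip overlapped. The 7 genes other than Apoe summed to 106 ± 5.29, 132 ± 4.62 and 179 ± 2.57 CPM per kilobase at the 3 days.

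The lengths were the union of annotated exons. Scaled by the longest transcript instead, a choice made after the data were seen, Mylip was at 44.2 and Srebf1 at 43.2 CPM per kilobase at day 14, and the ratio of Abcg1 to Abca1 was between 1.10 and 1.34 at day 7 and between 0.879 and 1.04 at day 14. The order of genes this close therefore depends on the length used, and so does the day at which Abcg1 was closest to Abca1.

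**Figure D3:**
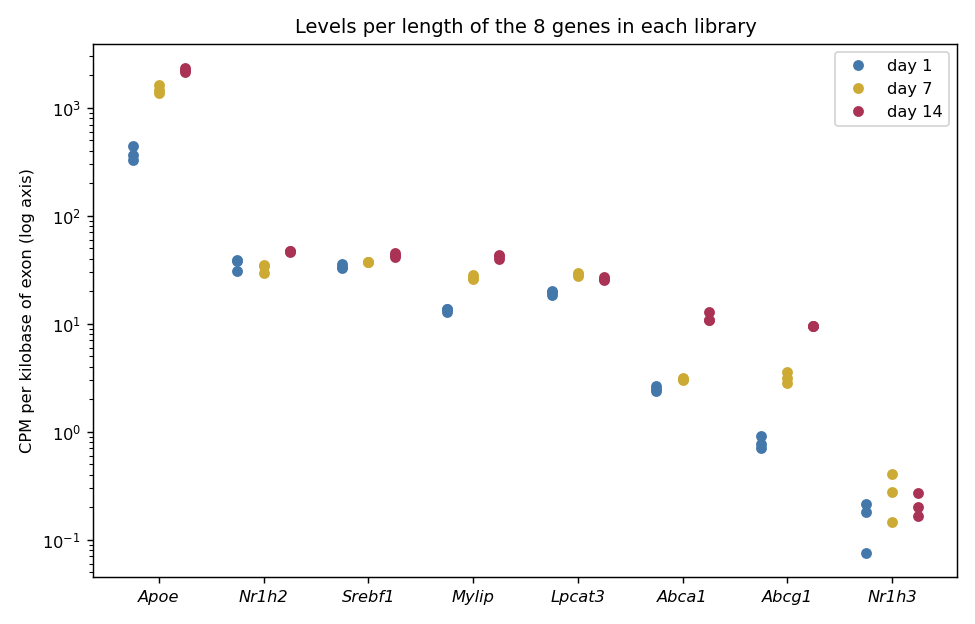
CPM per kilobase of exon (log axis) of the 8 genes in each library, coloured by day and ordered from left to right by mean level. Apoe reaches 2326 at day 14, Nr1h2 stays between 29.4 and 46.9, and Nr1h3 stays at or below 0.404 in all 9 libraries.

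The wider pathway was read from 6 lists with 93 genes, of which 86 could be tested. At day 7 versus day 1 these split evenly, with 22 higher and 23 lower, which is 25.6% and 26.7% of those tested against 25.5% and 24.0% of all genes. At day 14 versus day 7, 51 were higher (59.3%, against 32.5% of all genes) and 17 lower (19.8%, against 35.1%). At day 14 versus day 1, 49 were higher (57.0%, against 35.5%) and 23 lower (26.7%, against 38.4%). The median log2 fold change of the 86 genes was 0.0, 0.29 and 0.344 in these comparisons. With library totals alone, which shift the median of all genes to -0.1, -0.21 and -0.319, the lower counts at day 14 were 26 versus day 7 and 36 versus day 1. These lists, too, were chosen with earlier results of these data known, so nothing is read from their shares against those of all genes. The genes named from the lists below were largely picked for a large called change, so their adjusted p-values are given as a description.

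Of 17 tested partners and coregulators, 3 rose and 1 fell at day 7 versus day 1, 12 rose and 2 fell at day 14 versus day 7, and 11 rose and 2 fell at day 14 versus day 1 (medians 0.026, 0.28 and 0.238). With library totals alone the counts were 1 and 6, 7 and 5, and 7 and 6, and with DESeq2 3 fell at day 7 versus day 1. Rxra, the most abundant partner of the receptors, was at 462 ± 12.6, 518 ± 13.9 and 461 ± 17.1 CPM at days 1, 7 and 14, lower at day 14 than at day 7 (log2 fold change -0.17 ± 0.04, adjusted p = 0.00446). Rxrb was at 68.9 ± 4.10, 64.0 ± 0.696 and 78.8 ± 3.01 CPM, and its rise at day 14 versus day 1 (0.19 ± 0.05, adjusted p = 0.00444) turned to -0.08 with library totals alone. Rxrg did not exceed 10 counts.

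The coactivator Ncoa3 rose in each step, with means of 77.2 ± 1.89, 117 ± 2.88 and 187 ± 6.10 CPM (log2 fold change 1.27 ± 0.04 at day 14 versus day 1, adjusted p = 1.03e-10). Sirt1, a deacetylase known to act on liver X receptors, was at 48.5 ± 5.38, 52.4 ± 6.90 and 161 ± 10.7 CPM (1.73 ± 0.11 at day 14 versus day 1, adjusted p = 3.13e-07). Nrip1, a receptor-interacting coregulator, was at 41.5 ± 2.30, 41.5 ± 2.03 and 98.9 ± 5.81 CPM (1.25 ± 0.06 at day 14 versus day 7, adjusted p = 4.85e-09). The corepressor deacetylase Hdac3 fell at day 14, to 83.7 ± 0.126 CPM, against 104 ± 0.536 at day 1 (-0.32 ± 0.04, adjusted p = 4.56e-06). Med1, a mediator subunit, fell at day 7 versus day 1 (-0.24 ± 0.05, adjusted p = 0.000893). Its rise at day 14 versus day 7 (0.15 ± 0.05, adjusted p = 0.0110) turned to -0.02 with library totals alone and was lost without day 7 library 1 or 3 (adjusted p = 0.0553 and 0.0574, over alternatives that ranged to 0.704).

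Genes of oxysterol metabolism, which make or remove ligands, rose for 4 of 9 and fell for 0 at day 7 versus day 1, rose for 5 and fell for 2 at day 14 versus day 7 (1 with only those days fitted), and rose for 6 and fell for 2 at day 14 versus day 1 (medians 0.394, 0.444 and 0.838). Cyp27a1, the sterol 27-hydroxylase, was at 1.13 ± 0.319, 2.41 ± 0.329 and 19.7 ± 4.84 CPM (log2 fold change 4.12 ± 0.24 at day 14 versus day 1, adjusted p = 5.18e-08). Ch25h, the cholesterol 25-hydroxylase, was low, at 2.65 ± 0.329, 3.08 ± 0.451 and 6.00 ± 0.388 CPM (1.18 ± 0.15, adjusted p = 1.72e-05). Hsd3b7 and Cyp39a1, which act in the onward metabolism of oxysterols, reached 58.5 ± 2.24 and 54.1 ± 3.38 CPM at day 14, against 11.7 ± 1.08 and 21.8 ± 0.609 CPM at day 1 (2.32 ± 0.09 and 1.31 ± 0.07).

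Sult2b1, which sulfonates cholesterol and oxysterols, was at 34.6 ± 5.09 CPM at day 14, against 19.4 ± 3.85 CPM at day 1 (0.84 ± 0.15, adjusted p = 0.000734). Cyp7b1, an oxysterol hydroxylase, had 29 to 39 counts per library at day 1, 2 to 17 at day 7 and 0 at day 14, at least 9.34-fold lower than at day 1 against a floor of 3 counts per library. With Cyp7b1 at its bound the list's medians at day 14 were the same.

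Other known target genes went both ways. Of 16 tested, 4 rose and 9 fell at day 7 versus day 1 (median -0.235), 10 rose and 3 fell at day 14 versus day 7 (median 0.733), and 9 rose and 5 fell at day 14 versus day 1 (median 0.541). The 5 not tested were Abcg5, Abcg8, Apoc2, Apoc4 and Cyp7a1, with at most 22 counts in any library. Smpdl3a, a phosphodiesterase induced by the receptors, rose in both steps, with means of 8.16 ± 0.344, 17.0 ± 2.13 and 56.7 ± 4.97 CPM (log2 fold change 2.80 ± 0.10 at day 14 versus day 1, adjusted p = 9.69e-11). Apoc1, a neighbour of Apoe on chromosome 7, was at 41.7 ± 1.73, 99.8 ± 7.20 and 117 ± 6.06 CPM (1.26 ± 0.06 at day 7 versus day 1, adjusted p = 1.37e-08).

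Scd1 and Acsl3 were among those that rose at day 14 versus day 7. The desaturase Scd1 was at 53.5 ± 3.91, 68.4 ± 6.03 and 223 ± 1.92 CPM (1.70 ± 0.07 at day 14 versus day 7, adjusted p = 1.16e-09), and the acyl-CoA synthetase Acsl3 at 40.5 ± 2.63, 34.9 ± 2.42 and 135 ± 4.64 CPM (1.95 ± 0.06, adjusted p = 2.72e-10). Fasn, singled out after its promoter match and values were seen, was at 252 ± 9.76, 212 ± 12.7 and 399.6 ± 10.2 CPM.

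Several targets fell, with the lowest mean at day 14. Pltp, the phospholipid transfer protein, was at 84.2 ± 3.94, 21.4 ± 1.03 and 7.46 ± 0.775 CPM (log2 fold change -3.49 ± 0.08 at day 14 versus day 1, adjusted p = 4.44e-12). Scd2, another desaturase, was at 160.3 ± 4.36, 53.8 ± 5.10 and 25.9 ± 11.1 CPM (-2.63 ± 0.29, adjusted p = 0.000138). Fads1 was at 10.5 ± 1.18, 1.91 ± 0.674 and 1.74 ± 0.601 CPM (-2.44 ± 0.27 at day 7 versus day 1, adjusted p = 3.11e-05). Its difference at day 14 versus day 7 was not called (-0.14 ± 0.28, edgeR adjusted p = 0.677). The lipoprotein lipase gene Lpl was at 16.4 ± 2.60, 15.1 ± 3.42 and 4.68 ± 1.81 CPM (-1.69 ± 0.31 at day 14 versus day 7, adjusted p = 0.00175). The summed melanocyte and fibroblast markers given above were also lowest or near lowest at day 14, and their part in these falls was not tested.

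**Figure D4:**
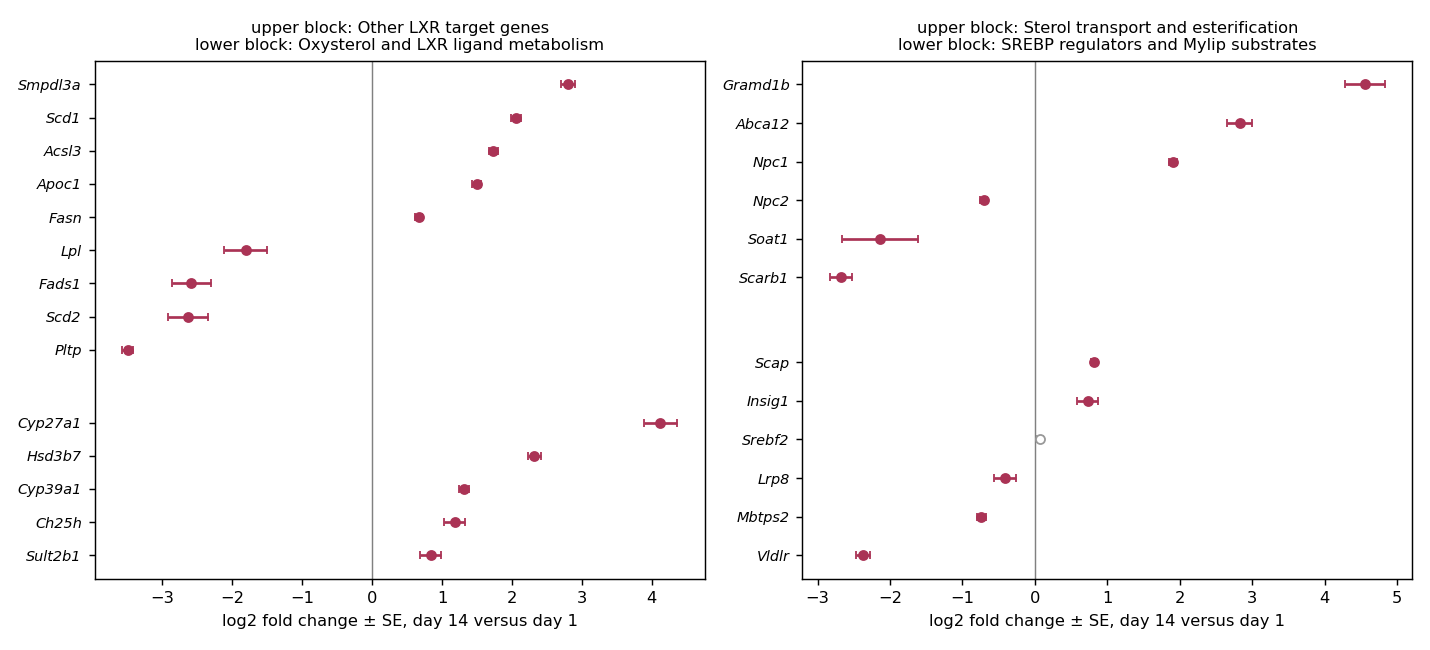
Log2 fold change ± SE (edgeR) at day 14 versus day 1 for the genes of 4 pathway lists that are named in the text, filled where the adjusted p was under 0.05 and open otherwise. Cyp7b1, at 0 counts at day 14, is left out. Cyp27a1 (4.12) and Gramd1b (4.56) lie farthest right, and Pltp (-3.49) farthest left.

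Of 23 genes of sterol transport and esterification, inside and outside cells, 6 rose and 5 fell at day 7 versus day 1. At day 14 versus day 7, 14 rose and 4 fell, and at day 14 versus day 1, 14 rose and 5 fell. The medians were 0.029, 0.356 and 0.601, and with library totals alone 10 fell in the last comparison. Npc1, which moves cholesterol out of lysosomes, was at 89.1 ± 4.37, 155 ± 3.02 and 334 ± 20.5 CPM (log2 fold change 1.91 ± 0.06 at day 14 versus day 1, adjusted p = 2.62e-11), whereas its partner Npc2 fell, with 130 ± 5.61, 91.0 ± 2.60 and 79.2 ± 3.83 CPM (-0.71 ± 0.05, adjusted p = 5.06e-08). Abca12, the lipid transporter of lamellar granules, was at 17.8 ± 3.90, 52.2 ± 6.38 and 126 ± 8.20 CPM (2.83 ± 0.17, adjusted p = 1.64e-06). Gramd1b, which carries plasma membrane cholesterol to the endoplasmic reticulum, was at 0.302 ± 0.0935, 0.983 ± 0.233 and 7.18 ± 1.24 CPM (4.56 ± 0.27, adjusted p = 1.3e-08). Scarb1, the HDL receptor, fell in each step, with 21.9 ± 1.53, 6.33 ± 0.747 and 3.42 ± 0.808 CPM (-2.68 ± 0.15, adjusted p = 1.04e-08). Soat1, which esterifies cholesterol, was at 1.35 ± 0.738 CPM at day 14, against 5.96 ± 1.23 CPM at day 1 (-2.14 ± 0.53, adjusted p = 0.00731).

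Of the lipoprotein receptors that Mylip acts on, Vldlr was at 44.2 ± 4.57, 43.8 ± 0.172 and 8.52 ± 1.15 CPM (log2 fold change -2.36 ± 0.10 at day 14 versus day 7, adjusted p = 1.76e-09). Lrp8 was at 5.14 ± 0.289, 2.96 ± 0.578 and 3.85 ± 0.102 CPM and fell at day 7 versus day 1 (-0.80 ± 0.15, adjusted p = 0.000890). Mylip was higher at day 14 than at day 7, the step in which Vldlr fell.

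Among the genes that control SREBP processing, Scap, the escort protein, was at 139 ± 0.745, 151 ± 2.501 and 244 ± 13.5 CPM (0.82 ± 0.05 at day 14 versus day 1, adjusted p = 9.06e-09). Insig1, which retains it, was at 40.5 ± 7.29, 24.3 ± 3.21 and 67.0 ± 7.66 CPM, lower at day 7 than at day 1 (-0.73 ± 0.15, adjusted p = 0.00474) and higher at day 14 than at day 7 (1.46 ± 0.15, adjusted p = 5.58e-05). The protease Mbtps2 fell at day 14, to 16.7 ± 0.932 CPM, against 28.0 ± 0.707 CPM at day 1 (-0.74 ± 0.06, adjusted p = 2.91e-07). Srebf2, the cholesterol-synthesis relative of Srebf1, had means of 231 ± 5.68, 202 ± 5.50 and 242 ± 10.4 CPM, and its difference at day 14 versus day 1 missed the threshold (0.07 ± 0.05, adjusted p = 0.214). The ratio of Srebf1 to Srebf2 per kilobase of exon was between 0.733 and 0.759 at day 1, between 0.918 and 0.957 at day 7 and between 0.896 and 0.918 at day 14. Over the whole list of 12, 3 rose and 4 fell at day 7 versus day 1 (1 rose without any single library of those days, and 0 with library totals alone), 7 rose and 4 fell at day 14 versus day 7 (4 rose with library totals alone), and 6 rose and 5 fell at day 14 versus day 1 (medians -0.011, 0.231 and 0.225).

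The relatives of Lpcat3 did not all share its course. Of 9 lysophospholipid acyltransferases, 2 rose and 4 fell at day 7 versus day 1, 3 rose and 2 fell at day 14 versus day 7 (4 fell without day 14 library 4 or with library totals alone), and 3 rose and 4 fell at day 14 versus day 1 (medians 0.017, -0.08 and -0.182). Lpcat2 was at 26.7 ± 0.309, 53.3 ± 3.24 and 66.1 ± 2.21 CPM (1.31 ± 0.05 at day 14 versus day 1, adjusted p = 3.8e-10) and Mboat1 at 22.5 ± 2.73, 37.5 ± 0.877 and 52.8 ± 0.506 CPM (1.23 ± 0.07, adjusted p = 1.32e-08). Lpgat1 fell, with 37.0 ± 4.12, 24.8 ± 1.25 and 16.9 ± 0.984 CPM (-1.13 ± 0.08, adjusted p = 8.87e-08). Lclat1, like Lpcat3, had its highest mean at day 7, with 32.7 ± 3.05, 34.5 ± 0.495 and 28.8 ± 0.493 CPM. It was called lower at day 14 versus day 7 (edgeR adjusted p = 0.00365) but was not called at day 7 versus day 1 (adjusted p = 0.348).

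Genes whose log2 CPM followed each of the 8 most closely over the 9 libraries are named as a description. With libraries in only 3 days, such a correlation mostly reflects the order of the days. For Abca1 they were Atl2, Dip2b and Zfp46 (Pearson's r = 0.998 for each). For Abcg1 they were Mtmr1, Chit1 and Rasgrp1 (r = 0.997), of which Chit1 was at 12.5, 57.0 and 200.2 CPM at days 1, 7 and 14. For Apoe they were Susd2, Dlg2 and Ppara (r = 0.997), and Susd2 was at 4.26, 101 and 308 CPM. For Mylip they were Myl12a and Il15ra (r = 0.9995 and 0.9985). Lpcat3 was followed by S100a6, Smoc2 and Oat (r = 0.995, 0.995 and 0.993), and Srebf1 by Arhgef4, Sh3gl1 and Hspa13 (r = 0.991, 0.991 and 0.990). For Nr1h2 the closest were Pcnx4, U2af1l4 and Ulk3 (r = 0.977, 0.976 and 0.971), and for Nr1h3, with its low counts, Kptn at 0.879. Among the 8 genes themselves, Abcg1 and Mylip were the closest pair (r = 0.993), Abca1 stood nearer to Srebf1 (0.918) than to Abcg1 (0.893) or Apoe (0.758), and Nr1h2 followed Abca1 (0.833) more closely than Lpcat3 (0.039).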

How the data were processed

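The labels' protocols describe RNA purified on Qiagen columns, a TruSeq kit that keeps strand and a NovaSeq instrument. The submitters' processing notes name, with no order, mm10, StringTie 1.3.4d, HISAT2 2.1.0, Trimmomatic and bcl2fastq 2.20.0. How reads were counted, on which strand and with which gene models is not given in the sources used here. The deposited read counts per gene are integers with no scaling. Among counts from 1 to 20, between 53.1% and 55.1% were even in each library. The table has 18 further columns in other units, over all libraries, which were not used, since headers tie a column to a day and not to a single sample.

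Columns headed D0 were taken as day 1 by exclusion: no title names a day 0, and the other headers name days 7 and 14. The 8 genes and the lists were chosen with earlier results of these data known.

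After TMM scaling, all 9 libraries entered 1 robust quasi-likelihood model (edgeR 4.0.16, R 4.3.3, filterByExpr). P-values were adjusted by Benjamini-Hochberg over the 14507 genes tested, with a threshold of 0.05. The steps were tested on simulated counts. Levels of different genes were compared as CPM per kilobase, with exon lengths from GENCODE vM21. Alternatives were RLE size factors, library totals alone, DESeq2 1.42.0, no filter, only the 2 days compared, each library left out, and a replicate block. Named list genes come from a rule: per list and pair of days, up to 2 called genes with the greatest rise and up to 2 with the greatest fall, at 5 CPM or more in the higher day, and 9 genes always named. Some that the rule picks were left out for length, and a few genes are not reported here. Genes that follow a member also needed 5 CPM in some day.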

Additional observations from a re-analysis of the deposited data

How the results depend on the processing

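Over the alternatives run, the log2 fold changes of Abca1, Abcg1, Apoe and Mylip kept their sign in all 3 comparisons. Scaling mattered most. With library totals alone, the share of changed genes that were higher was 35.7% rather than 51.5% at day 7 versus day 1, 34.9% rather than 48.1% at day 14 versus day 7 and 31.9% rather than 48.1% at day 14 versus day 1. In that setting the lower counts of the pathway lists were 26 rather than 17 at day 14 versus day 7 and 36 rather than 23 at day 14 versus day 1. Rxrb at day 14 versus day 1 (-0.0798) and Med1 at day 14 versus day 7 (-0.0216) reversed. With DESeq2, 0 of the 8 genes rather than 1 were called lower at day 14 versus day 7. Leaving out single libraries gave 0 to 1 lower there and 0 to 1 lower at day 7 versus day 1. The cause was not tested. In the named list genes, calls at day 7 versus day 1 of Ncoa2, Insig2 and Scap were lost without several single libraries.

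Header numbers 4, 5 and 6 are shared by days 1 and 14. Deviations of same-numbered libraries from their day means had r = 0.014, 0.01 and 0.104, and those of the other pairs had r from -0.065 to 0.049. Deviations from a mean of 3 libraries cancel within a day, so these values cannot show whether same-numbered libraries share more than a number. With the replicate block 4888 genes were higher and 5282 lower at day 14 versus day 1, rather than 5150 and 5566, and 7 of the 8 genes were higher as without it. No paired analysis was possible because day 7 shares no number with the other days for the 2 comparisons that involve it. Nr1h3, at 11 to 55 counts per library, is limited by depth.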
